A study of Mus musculus with 17 samples.

Results

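The cytosolic ribosomal protein genes are the genes for the protein part of the ribosome that translates nuclear messages. They were taken by symbol: every counted row named Rpl or Rps with a number, Rplp0, Rplp1, Rplp2 or Rpsa, leaving out the S6 kinases, the Rps19 binding protein genes and rows named as pseudogenes. The rule found 90 of the 27179 counted rows. Of these, 46 are core proteins of the large subunit, 31 are core proteins of the small subunit and 13 are paralogues or retrotransposed copies (Rpl10l, Rpl22l1, Rpl32l, Rpl36al, Rpl37rt, Rpl39l, Rpl3l, Rpl6l, Rpl7l1, Rps23rg1, Rps27l, Rps27rt and Rps4l). A read was counted for 89 of them, 86 had a read in every library, and 88 passed the filter on low counts. Rpl10l, with 0 reads, and Rpl39l, with 27 reads in all, were not tested.

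RNA-seq libraries were made from sorted thymocytes of C57BL/6 mice, either wild-type (WT) or carrying an Lmo2 transgene (TG). Lmo2 is a transcriptional cofactor of early blood cells and a T cell oncogene, and the promoter that drives the transgene is not given in the sources used here. DN2 and DN3a are successive stages of thymocytes that carry neither CD4 nor CD8. The 17 libraries came from 12 mice and fell into 6 groups, and the comparisons ask what the transgene does at each stage and age. Young DN2 cells came from 2 WT and 3 TG mice aged 2.5 weeks. Young DN3a cells came from 3 WT mice, aged 2.5, 2.5 and 3 weeks, and 3 TG mice aged 2.5 weeks. Old DN3a cells came from 3 WT mice aged 8 to 10 weeks and 3 TG mice aged 6 to 10 weeks. All old mice were female and each young group held both sexes. Each library came from 1 mouse. Of the 6 young DN3a libraries, 5 came from a mouse that also gave a DN2 library. Comparisons between genotypes or ages within a stage set different mice against each other. Their p-values use a spread estimated over all 17 libraries, in which libraries of a shared mouse count as independent. The stage steps and the stage difference between genotypes also compare libraries of a shared mouse, and their p-values treat these as independent. A fit with the mouse as a block is given below as an alternative. The study's design names 1 more WT DN2 library, which was not analysed here.

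Most ribosomal proteins bind ribosomal RNA in a fixed place. Nearly every one is needed in a single copy per ribosome, so their messages are usually made in proportion. The messages are among the most abundant of a growing cell. Most of these transcripts begin with an unbroken run of pyrimidines, the 5′ terminal oligopyrimidine tract, through which mTOR signalling controls their translation. In developing thymocytes, loss of Rpl22 is known to arrest αβ lineage cells, Rpl5 and Rpl11 are known to hold the p53 inhibitor Mdm2 when ribosome assembly fails, and RPL5, RPL10, RPL11 and RPL22 are mutated in human T cell leukaemia. Mammalian genomes also carry many processed copies of these genes, and a read that matches several copies cannot be given to one of them with certainty.

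RefSeq starts on GRCm38.p6 were matched for 68 members, 57 of them core. The windows below run from 40 bases before the annotated start to 20 bases from it, written 5′ to 3′ on the gene's strand, and capitals mark the pyrimidine run that begins at the start. They are shown because these genes carried the differences described below, with the tract in Rpl28, Rps6, Rpl14, Rps10 and Rpl38 and without it, at the annotated start, in Rpl36a, Rps16, Rpl9 and Rpl11.
Rpl28, chr7:4792925-4792984, plus strand: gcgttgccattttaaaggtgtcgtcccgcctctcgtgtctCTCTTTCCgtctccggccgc
Rps6, chr4:86857348-86857407, minus strand: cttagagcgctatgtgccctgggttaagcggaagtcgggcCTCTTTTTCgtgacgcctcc
Rpl14, chr9:120571477-120571536, plus strand: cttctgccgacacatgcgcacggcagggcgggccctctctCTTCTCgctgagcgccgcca
Rps10, chr17:27635225-27635284, minus strand: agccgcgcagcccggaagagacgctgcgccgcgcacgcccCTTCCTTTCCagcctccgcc
Rpl38, chr11:114668540-114668599, plus strand: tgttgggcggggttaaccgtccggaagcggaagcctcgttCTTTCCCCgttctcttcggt
Rpl36a, chrX:134585614-134585673, plus strand: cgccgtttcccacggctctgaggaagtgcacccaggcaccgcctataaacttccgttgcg
Rps16, chr7:28350649-28350708, plus strand: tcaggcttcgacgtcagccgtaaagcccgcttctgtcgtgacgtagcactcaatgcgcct
Rpl9, chr5:65391412-65391471, minus strand: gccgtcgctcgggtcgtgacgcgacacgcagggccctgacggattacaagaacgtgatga
Rpl11, chr4:136053374-136053433, minus strand: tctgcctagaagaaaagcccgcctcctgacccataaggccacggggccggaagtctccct

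A tract, defined as C at the annotated start followed by 4 bases that are each C or T, was present in 13 of the 57 core members (22.8%), against 3.01% of the 27025 genes in the promoter table. The share was 40.4% of core members and 13.5% of all genes when the start could move by up to 3 bases, since annotated starts are approximate. In the 300-base promoters, the letters CCGGAAG, the core of the site bound by GABP, were found on either strand in 24 of 57 core members (42.1%), 9.93% of all genes and 20.2% of the 10100 tested genes outside the family. The SP1 box GGGCGG was found in 61.4% of core members and 67.0% of those other tested genes. These are matches of letters and not measured binding.

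Library totals ran from 7183303 to 11360308 counted reads, so that 1 read was worth 0.0880 to 0.139 CPM (counts scaled by the library total). Lmo2 was at 92.3 to 156 CPM in TG DN2, 19.5 to 39.4 CPM in TG DN3a and 0 to 0.847 CPM in WT libraries. The 20 genes listed as markers of DN thymocytes all had reads in every group, with a summed level of 8139 to 18990 CPM. An unnamed feature of 5868 bases took 9.48 to 16.6% of reads in 4 libraries (TG DN2 replicates 2 and 3, TG young DN3a replicate 1 and WT old DN3a replicate 1) and 0.306 to 7.13% in the other 13. WT DN2 replicate 1 also stood apart, with reads for 13028 genes against 14447 to 15680 in the others.

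The 90 members together took 1.28 to 2.76% of counted reads. In young DN2 cells the share was 2.33 and 1.99% in WT and 2.76, 1.40 and 1.41% in TG (2.16 ± 0.244%, SD, n = 2, against 1.85 ± 0.781%, n = 3). In young DN3a cells it was 2.08 ± 0.0402% in WT and 1.95 ± 0.544% in TG, and in old DN3a cells 1.72 ± 0.384% in WT and 1.84 ± 0.307% in TG (n = 3 each). The TG and WT libraries overlapped at each stage and age. The 4 libraries rich in the unnamed feature had the 4 lowest shares, 1.28 to 1.5% against 1.60 to 2.76% in the other 13. With that feature, Lars2 and the mitochondrial genes taken out of the total, the ranges overlapped, at 1.51 to 2.05% against 1.67 to 3.01%. In bulk samples a lower level can come from fewer cells of a type or from less RNA per cell, and the totals cannot tell these apart.

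**Figure D1:**
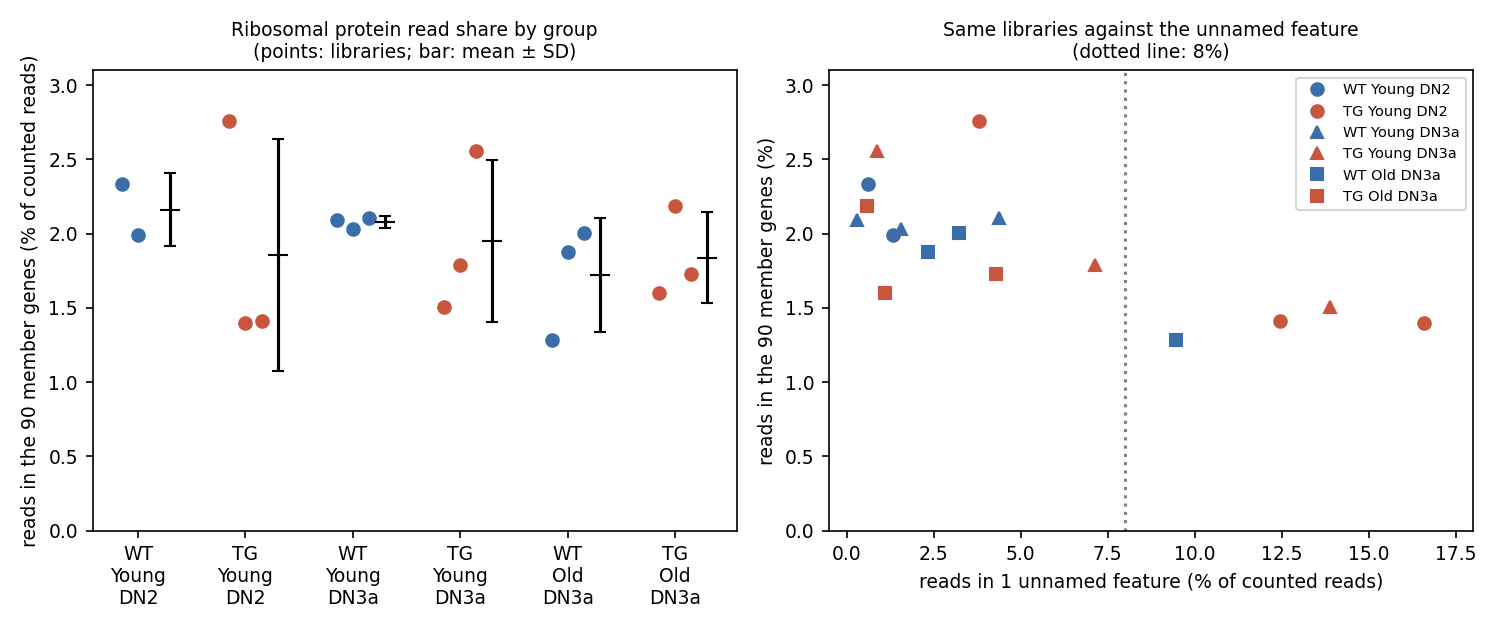
The left panel plots the percent of counted reads in the 90 ribosomal protein genes for each of 17 libraries by group (points, with mean ± SD beside them), and the right panel plots the same percent against the percent of reads in 1 unnamed feature. The 4 libraries to the right of the dotted 8% line sit between 1.28 and 1.5%, below the other 13.

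Levels between genes were compared as RPKM, the CPM divided by the length of the counted gene model in kilobases. Although ribosomes hold nearly all of the proteins in equal number, the counted levels of the 77 core genes ran from 0.960 to 1757 RPKM, with a median of 123 RPKM. Rplp1 of the stalk, the flexible arm that recruits elongation factors, was counted at the highest level, followed by Rpl8, at the peptidyl transferase centre, with 1725 RPKM and Rpl32 with 1441 RPKM. The other stalk genes were at 883 RPKM for Rplp0 and 362 RPKM for Rplp2. Rps3, at the messenger RNA entry channel, was at 795 RPKM, and Rpl4, which lines the exit tunnel, was at 657 RPKM. Rpl39, which also lines the exit tunnel, was lowest with 0.960 RPKM and 58 reads in all, and Rpl13, Rpl31 and Rpl38 followed with 5.21, 10.4 and 13.6 RPKM.

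The genes counted lowest were often those whose sequence is repeated elsewhere in the annotation. Each member's annotated transcript was cut into every stretch of 100 bases, the read length, and the share of stretches that also occur, letter for letter, in another annotated gene was taken. In 30 of the 77 core members more than 50% of stretches were shared, and their median level was 59.1 RPKM, against 166 RPKM for the others. Over the 77 core genes the shared percent and the level per length had a Spearman correlation of −0.52, given as a description across genes that come from the same libraries. Rps27, a zinc finger protein of the small subunit, had 98.4% of stretches shared and 18.6 RPKM, while its retrotransposed copy Rps27rt was counted at 585 RPKM. Rpl37, with 21.5% of stretches shared, was at 21.7 RPKM and its copy Rpl37rt at 683 RPKM. A low level did not always go with shared sequence, and Rpl39, the lowest, had 1.75% of stretches shared. The counted level of a gene with much shared sequence is uncertain as a level of that gene, and how reads matching several places were counted is not given in the sources used here. Rpl22 and Rps3 shared no stretch with another gene.

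In young DN2 cells members were called between TG and WT at a lower rate than all genes, and nearly all of their calls were lower in TG. Of 88 tested members, 15 were lower and 1 was higher (edgeR quasi-likelihood test, Benjamini-Hochberg adjusted p under 0.05). That was 18.18% called and 17.05% lower, where 25.3% of all 13534 genes were called and 12.0% were lower. The calls rested on single libraries, as described below. The members' median log2 fold change was −0.31, with 70 of 88 below 0, while the median of all genes was 0.03. The 15 were Rpl36a, Rpl28, Rps29, Rpl37a, Rps16, Rpl9, Rpl31, Rpl5, Rpl12, Rpl14, Rps6, Rpl11, Rpl38, Rpl27a and Rps10, 11 of them in the large subunit. No paralogue was called. The TG and WT libraries did not overlap in 26 of 88 members (29.55%), against 49.7% of all genes. In 23 of the 88 TG lay below, against 23.9% of all genes. Rpl31 and Rpl5, like Rpl32, Rpsa, Rpl23a and Rps4l, overlap another gene in the annotation, and no source used here gives the strand setting of the counting, which makes their counts uncertain. Shared stretches were the majority in Rpl5 (91.1%), Rpl9 (87.0%), Rpl36a and Rps6 (83.6% each), Rpl31 (63.2%) and Rpl11 (59.7%), but not in the rest of the 15. Among members called in other comparisons, Rpl10 had 84.4% shared, Rpl24 80.1% and Rpl23a 80.0%. The levels of these genes are uncertain for that reason.

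Rpl36a, a large subunit protein near the exit site for transfer RNA, was at 36.1 and 13 CPM in WT DN2 and at 6.5, 3.06 and 4.30 CPM in TG DN2. Both WT libraries lay above all 3 TG libraries, and WT replicate 1 lay far above the rest. The fold change was −2.39 on the log2 scale (SE 0.43, adjusted p = 0.000578). Rpl36a was called lower under all 15 other settings and in all 17 fits that left out 1 library, and the change without WT replicate 1 was −1.49 with an adjusted p of 0.0426. Of its 100-base stretches, 83.6% were shared with 2 other genes, so part of its count is uncertain.

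Rpl28 was at 53.9 and 22.2 CPM in WT and 12.9, 12.9 and 11 CPM in TG (log2 fold change −1.64, SE 0.38, adjusted p = 0.00453). Rps29, a small zinc-binding protein of the small subunit head, was at 26.1 and 15.3 CPM in WT and 8.67, 5.15 and 7.04 CPM in TG (−1.56, SE 0.38, adjusted p = 0.00534). Rpl37a, also zinc-binding, was at 37.9 and 17.4 CPM in WT and 15.5, 8.21 and 7.95 CPM in TG (−1.38, SE 0.35, adjusted p = 0.00724). In each of these 3 genes the WT and TG libraries did not overlap, and WT replicate 1 was the highest of the 5.
Rps16, which reaches towards the decoding site, was at 62.9 and 34.5 CPM in WT and 28.5, 24.0 and 17.9 CPM in TG (−1.05, SE 0.27, adjusted p = 0.00879). Rpl9, near the base of the stalk, was at 52.9 and 34.9 CPM in WT and 22.6, 20.9 and 19.6 CPM in TG (−1.06, SE 0.29, adjusted p = 0.0115). Both genes again had no overlap between genotypes.

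The most abundant members were not called. Rplp0 was at 1272 and 1154 CPM in WT and 1562, 1131 and 1103 CPM in TG, Rplp1 at 915 and 804 against 1332, 759 and 672 CPM, and Rplp2 at 192 and 157 against 260, 138 and 117 CPM. In all 3 stalk genes the TG libraries lay on both sides of WT, with log2 fold changes of 0.06, 0.10 and −0.02, none called. Rpsa, the laminin receptor protein of the small subunit, was at 712 and 614 CPM in WT and 587, 368 and 356 CPM in TG. Both WT libraries of Rpsa lay above all 3 TG libraries, but it was not called (−0.60, adjusted p = 0.0879). Rpl8 and Rps3 had log2 fold changes of −0.11 (95% interval −0.68 to 0.46) and −0.15 (−0.63 to 0.34). When the 77 core members were ranked by mean CPM, the 26 lowest (0.378 to 42.0 CPM) held 12 of the 15 lower calls and had a median log2 fold change of −0.90, the middle 25 held 2 with a median of −0.32, and the 26 highest (215 to 1494 CPM) held 1, Rpl14, with a median of −0.14.

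**Figure D2:**
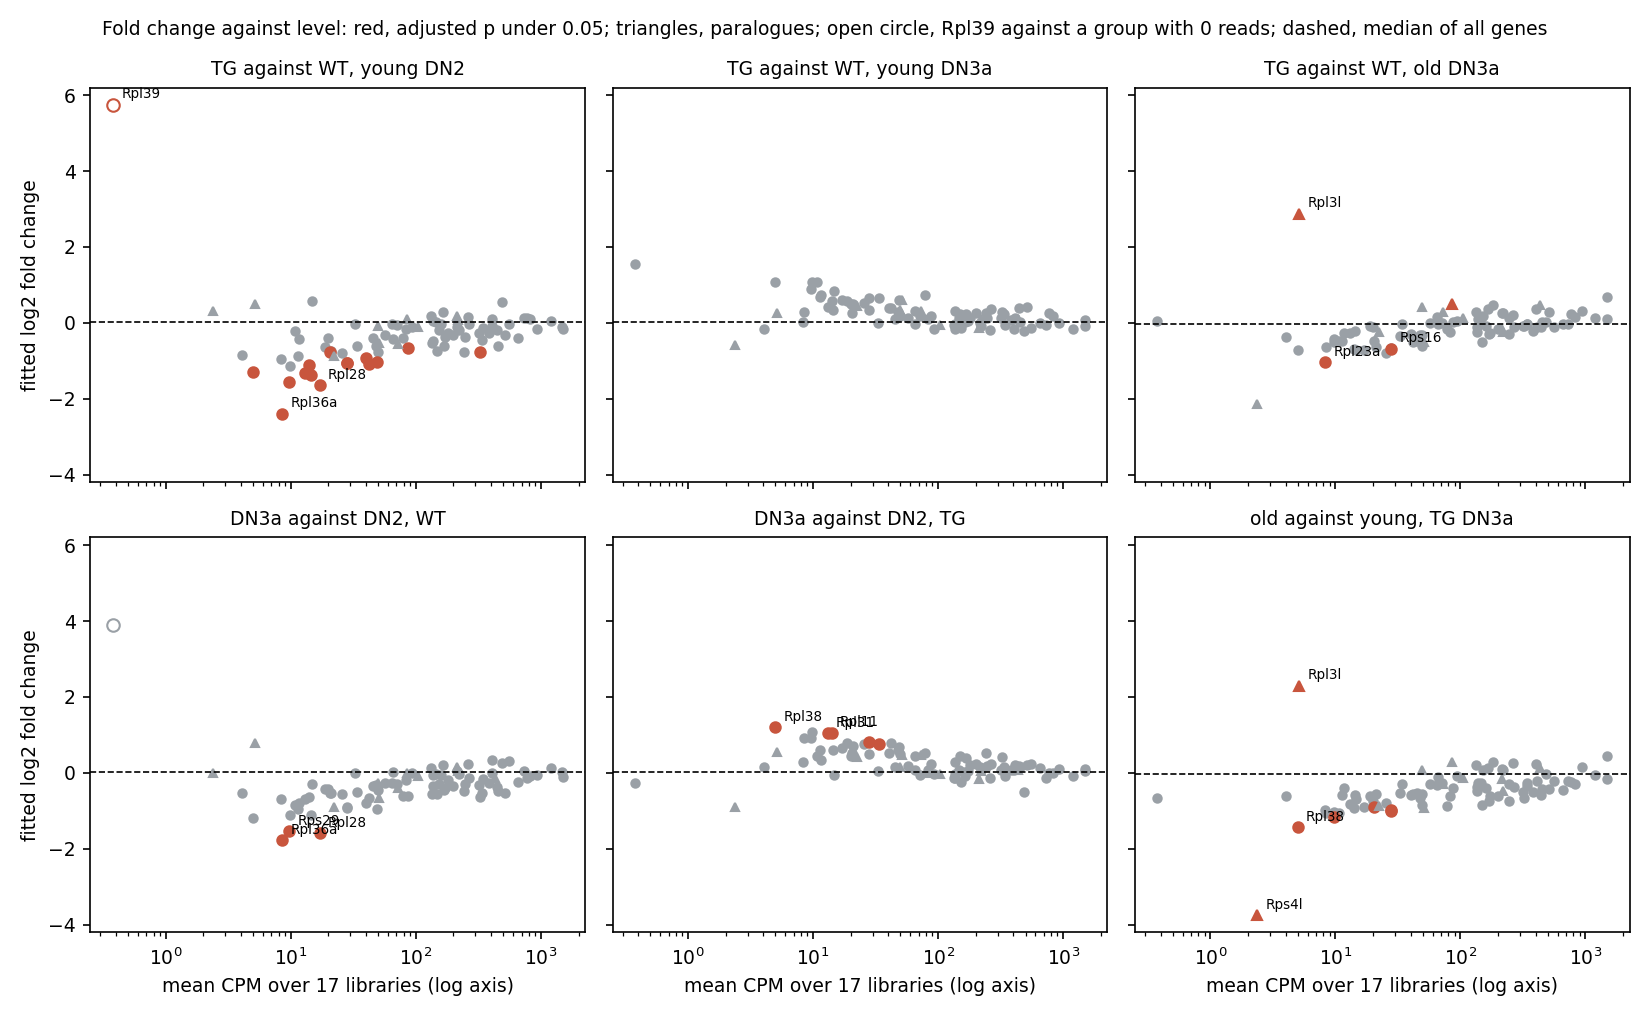
Fitted log2 fold change of each tested member (vertical) against its mean CPM over 17 libraries (horizontal, log axis) in 6 comparisons, with called members in red, paralogues as triangles, Rpl39 against a group with 0 reads as an open circle and the median of all genes as a dashed line. Most called members lie at the left, under 42.0 CPM, and the spread narrows around the dashed line for the abundant members.

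Rpl39 was the single higher member of TG DN2, on very few reads. It was tested in 15 of the 17 fits that left out 1 library. The fits that lost it, with 87 members tested, lacked TG DN2 replicate 3 or TG young DN3a replicate 3. Its passing of the low-count filter thus depended on TG libraries that held its reads, and the call adds no support beyond those reads. It had 0 reads in both WT DN2 libraries and 5, 2 and 10 reads in the 3 TG libraries, 17 in all. Taking 3 counts over the WT group as the most that a count of 0 allows, the pooled level was at least 4.92-fold higher in TG, for counting error only.

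The count of lower members in TG DN2 rested on single libraries. Without WT DN2 replicate 1 only Rpl36a was called, without TG DN2 replicate 2 or 3 there were 6 lower calls each, and without TG DN2 replicate 1 there were 39. Without the 4 libraries rich in the unnamed feature, which leaves TG DN2 with 1 library whose spread is assumed to be that of the other groups, 1 member was lower and the members' median was 0.10. With the log2 share of that feature as a covariate, 1 was lower and 1 higher and the median was 0.06. The low-count members moved together from library to library: the median deviation of the lowest 26 from their own means was 0.91 in WT DN2 replicate 1, 0.86 in TG young DN3a replicate 1 and 0.42 in WT old DN3a replicate 2 on the log2 scale, and between −0.55 and 0.30 in the other 14. For the highest 26 the deviations in those 3 libraries were 0.19, −0.15 and −0.04.

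Other measures differed between the DN2 genotypes as well, and their part in these values was not tested. Mitochondrial genes took 12.2 and 13.4% of reads in WT DN2 and 1.96 to 3.75% in TG DN2. The summed level of 22 genes of the G2 and M phases was 6345 to 6443 CPM in WT and 754 to 1598 CPM in TG, and all 22 were lower in TG. The summed level of 11 myeloid markers was 15.4 to 21.4 CPM in WT and 123 to 162 CPM in TG, where 4 of the 11, Elane, Cd14, S100a8 and S100a9, had no read. The summed level of the 20 DN thymocyte markers was 13220 to 13590 CPM in WT and 8139 to 9616 CPM in TG, with 10 lower and 3 higher. The summed level of 10 markers of NK and innate lymphoid cells was 193 to 221 CPM in WT, with 5 of the 10 at 0, and 58.3 to 84.1 CPM in TG, with Ncr1 and Tbx21 at 0, and of the 5 tested 3 were higher and 1 lower.

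**Figure D3:**
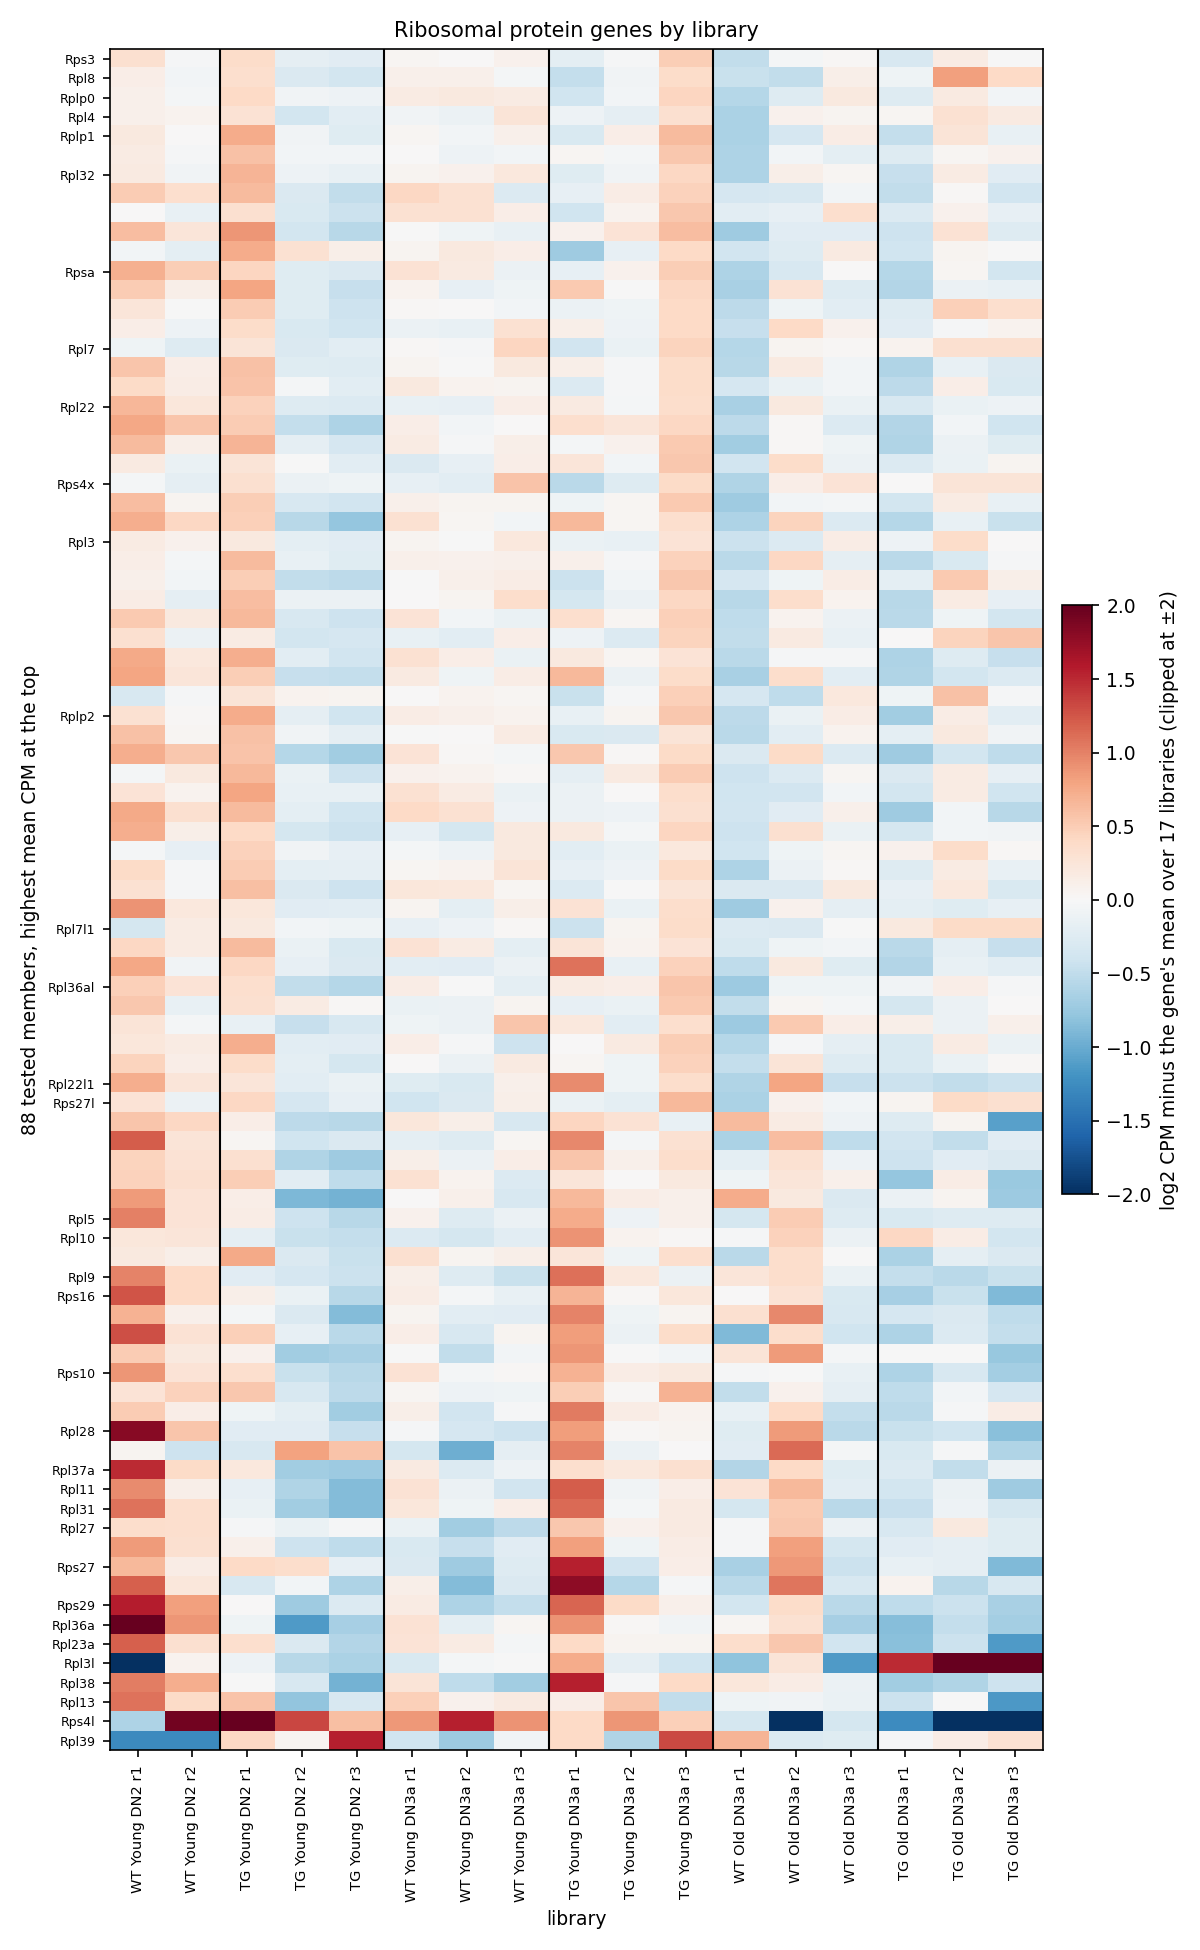
Rows are the 88 tested members with the highest mean CPM at the top and the genes selected by the naming rule labelled, columns are the 17 libraries by group, and colour is the log2 CPM minus the gene's own mean over the libraries, clipped at ±2. The low rows are red in WT DN2 replicate 1 and TG young DN3a replicate 1 while the top rows are not, and Rpl3l is red in the 3 TG old DN3a libraries.

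In young DN3a cells no member was called between TG and WT, where 9.86% of all genes were, 4.70% higher and 5.16% lower. At an unadjusted p under 0.05 there were 9 members, all towards higher values in TG, against 23.3% of all genes, and DESeq2 called 1 and limma voom 2. The members' median log2 fold change was 0.19 and that of all genes 0.02. The genotypes did not overlap in 9 members, all with TG above, against 29.9% of all genes in either direction. The smallest p belonged to Rpl27, with 10.3, 6.92 and 7.81 CPM in WT and 16.6, 12.1 and 12.9 CPM in TG (0.73, SE 0.26, adjusted p = 0.0785), and Rpl10, with 27.2, 25.6 and 28.2 CPM in WT and 61.1, 34.6 and 33.3 CPM in TG (0.67, SE 0.24, adjusted p = 0.0882). In both genes all TG libraries lay above all WT libraries, with TG replicate 1 highest.

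In old DN3a cells 4 of the 88 members were called, with 2 higher and 2 lower in TG, where 30.6% of all genes were called. The median of the members was −0.11 and that of all genes −0.04. The genotypes did not overlap in 11 members, 7 of them with TG below, against 45.6% and 23.1% of all genes. Rpl3l, the heart and skeletal muscle paralogue of Rpl3, was at 1.72, 3.81 and 1.32 CPM in WT and 9.26, 28.2 and 13.5 CPM in TG. Every TG library lay above every WT library, and the other 11 libraries held 0.0884 to 5.42 CPM. The fold change was 2.88 on the log2 scale, or 7.37-fold (SE 0.66, adjusted p = 0.00288), and the call was kept under all 15 other settings and in all 17 fits without 1 library, with values from 2.30 to 3.48. Rpl3l lies at chr17:24727826-24736143 of GRCm38.p6 in RefSeq, overlaps no other counted gene and shares no 100-base stretch with another annotated gene, Rpl3 included. Its level stayed small, with a mean of 3.22 RPKM over the 17 libraries against 162 RPKM for Rpl3. Rpl3 itself was at 162, 181 and 242 CPM in WT and 204, 280 and 218 CPM in TG old DN3a and was not called (0.26, 95% interval −0.10 to 0.62).

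Rpl7l1, a paralogue of Rpl7 with a part in large subunit assembly, was at 69.5, 68.6 and 83.7 CPM in WT and 96.1, 110 and 109 CPM in TG (0.51, SE 0.18, adjusted p = 0.0442). Rpl23a, at the exit of the peptide tunnel, was at 9.93, 11.3 and 5.85 CPM in WT and 4.24, 5.64 and 3.38 CPM in TG (−1.03, SE 0.34, adjusted p = 0.0280). Rps16 was at 26.4, 32.2 and 21.2 CPM in WT and 16.5, 19.2 and 14.2 CPM in TG (−0.67, SE 0.25, adjusted p = 0.0496). The genotypes did not overlap in any of the 3 genes. Their calls were less secure than that of Rpl3l: 1 member, Rpl3l, was called without WT old replicate 1, WT old replicate 2 or TG old replicate 3, 2 members without WT young DN3a replicate 1 or 2 or TG young DN3a replicate 2, and 7 without WT old replicate 3 or TG young DN3a replicate 1. Rpl8 was not called, at 1057, 1027 and 1558 CPM in WT and 1364, 2532 and 1903 CPM in TG (0.67, SE 0.26, adjusted p = 0.0578).

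**Figure D4:**
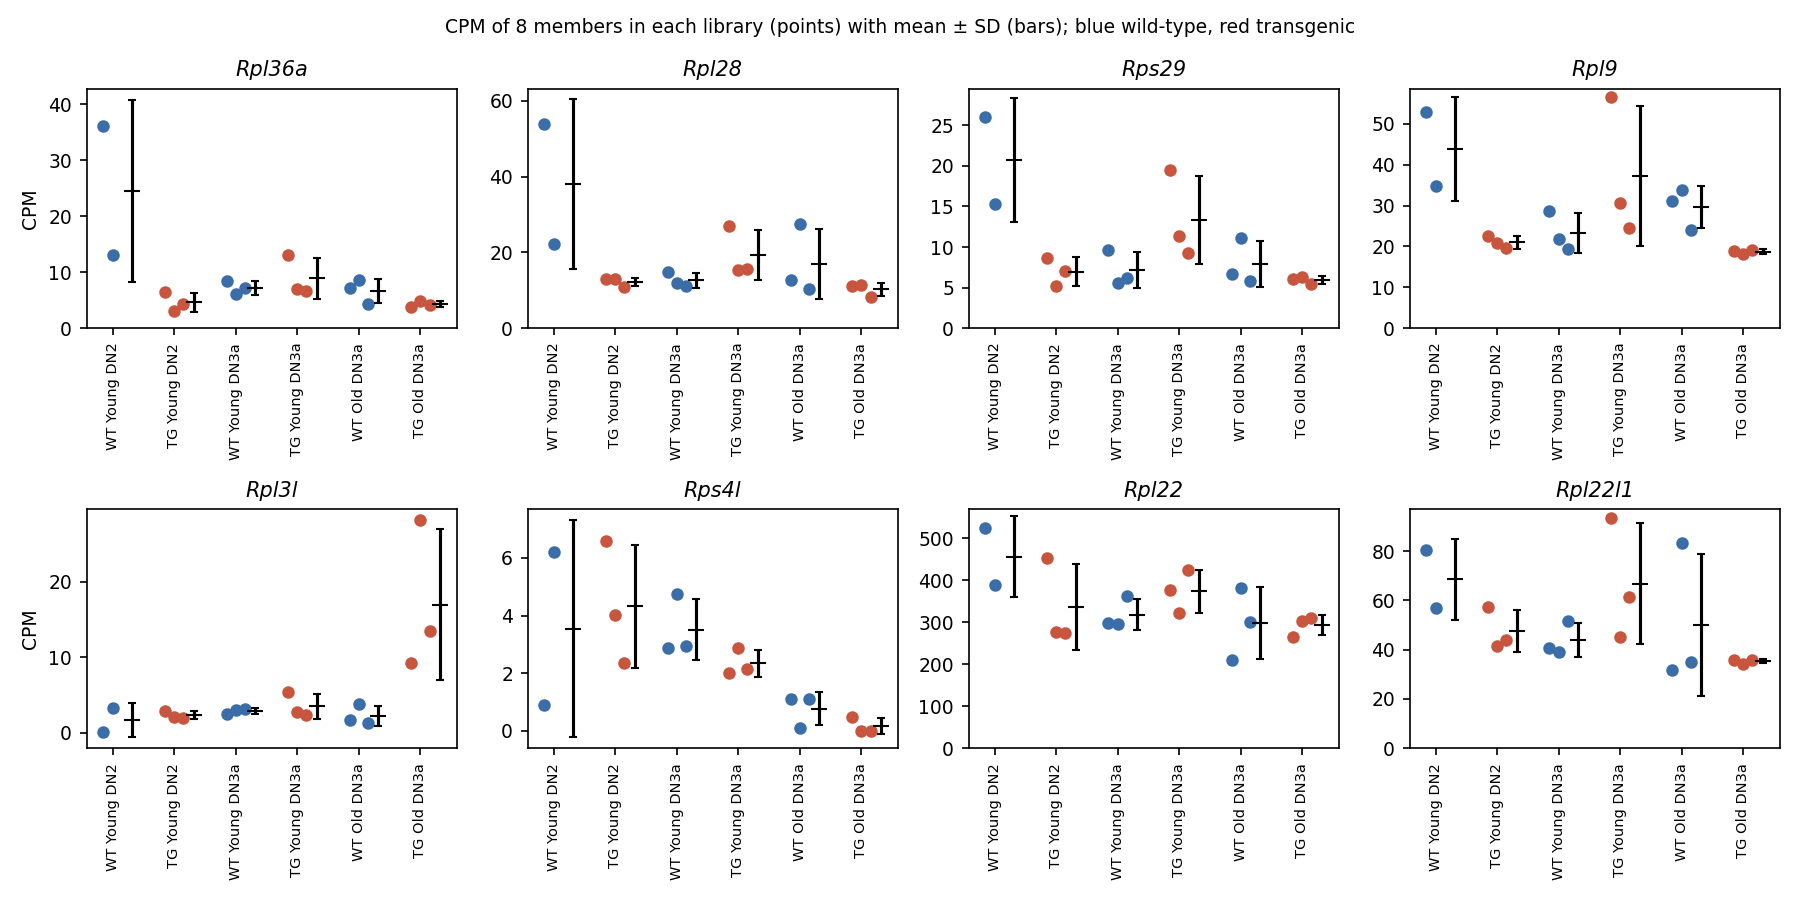
CPM of 8 members in each library by group (points; blue WT, red TG) with mean ± SD. Rpl36a, Rpl28, Rps29 and Rpl9 are highest in WT DN2 or in TG young DN3a replicate 1, Rpl3l stands above its other groups in TG old DN3a at 9.26 to 28.2 CPM, and Rpl22 and Rpl22l1 overlap between genotypes.

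From DN2 to DN3a in young WT mice, 3 large or small subunit genes fell and none rose, where 6.35% of all genes were called, 3.52% lower and 2.83% higher. They were Rpl36a (−1.76, SE 0.42, adjusted p = 0.0183), Rpl28 (−1.59, SE 0.38, adjusted p = 0.0191) and Rps29 (−1.54, SE 0.37, adjusted p = 0.0205). WT DN3a cells held 8.50, 6.03 and 7.16 CPM of Rpl36a, 14.8, 11.9 and 11.2 CPM of Rpl28 and 9.66, 5.53 and 6.15 CPM of Rps29, all below the WT DN2 values given above. The members' median was −0.32 and that of all genes 0.03. In 44 of 88 members the WT DN2 and DN3a libraries did not overlap, 38 of them with DN3a below, against 42.0% and 19.8% of all genes. No member was called without WT DN2 replicate 1 or without WT DN3a replicate 2, Rpl36a was also lost without WT DN3a replicate 1, and 11 were called without WT DN2 replicate 2. The number was 6 without TG DN2 replicate 1 or WT old DN3a replicate 2, 5 without TG young DN3a replicate 1 and 7 without the 4 libraries rich in the unnamed feature.

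From DN2 to DN3a in young TG mice, 5 large subunit genes rose and none fell, where 25.9% of all genes were called, 12.7% higher and 13.2% lower. The median of the members was 0.19 and that of all genes 0.03. Rpl10, which joins the subunit last and closes the transfer RNA sites, went from 28.8, 24.0 and 23.5 CPM to 61.1, 34.6 and 33.3 CPM (0.75, SE 0.24, adjusted p = 0.0276). Rpl9 went from 22.6, 20.9 and 19.6 CPM to 56.6, 30.5 and 24.4 CPM (0.82, SE 0.27, adjusted p = 0.0285). Rpl11 went from 11.6, 8.53 and 7.04 CPM to 30.5, 12.4 and 14.4 CPM (1.06, SE 0.35, adjusted p = 0.0313). The stages did not overlap in these 3 genes, and TG DN3a replicate 1 was the highest library in each. Rpl31, at the exit of the peptide tunnel, and Rpl38 followed with 1.06 (SE 0.35, adjusted p = 0.0298) and 1.20 (SE 0.42, adjusted p = 0.0410). With the mouse as a block, since the TG DN3a libraries came from the mice that gave the TG DN2 libraries, 2 members were called, and of the 5 genes above Rpl9 kept its call while Rpl10, Rpl11, Rpl31 and Rpl38 lost theirs. No member was called without TG DN3a replicate 1, without TG DN2 replicate 2, without TG DN2 replicate 3 or without the 4 libraries rich in the unnamed feature, 8 were called without TG DN3a replicate 3 and 20 without TG DN2 replicate 1.

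The stage step differed between genotypes in 16 members, all with a larger DN3a minus DN2 value in TG, where 20.9% of all genes were called, 10.9% with a larger and 9.97% with a smaller value. The median difference was 0.44 on the log2 scale for the members and −0.06 for all genes. The smallest adjusted p belonged to Rps29 (2.46, SE 0.51, adjusted p = 0.00243), Rpl36a (2.68, SE 0.58, adjusted p = 0.00325), Rpl9 (1.73, SE 0.39, adjusted p = 0.00423) and Rpl28 (2.25, SE 0.52, adjusted p = 0.00510). The 26 core members of lowest level held 14 of the 16 calls and had a median of 1.32, and the 26 of highest level held 1 and had a median of 0.19. This comparison uses the same DN2 and DN3a libraries as the comparisons above and is not independent of them. Without WT DN2 replicate 1 there were 3 calls, without TG DN3a replicate 1 there were 7, without TG DN2 replicate 3 there were 9, without TG DN2 replicate 2 there were 10 and without TG DN2 replicate 1 there were 37. Without the 4 libraries rich in the unnamed feature there were 0 and the median was 0.09. Other lists moved over the same steps, and their part in these values was not tested. Of the 22 G2 and M phase genes 12 fell in the WT step (median −1.70), 4 rose in the TG step (median 1.08) and 21 had a larger value in TG by the test of the difference (median 2.76). All 5 tested myeloid markers fell in the TG step (median −5.79), where their summed level over 11 genes went from 123 to 162 CPM to 4.87 to 6.41 CPM.

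Between old and young WT DN3a cells no member was called (edgeR quasi-likelihood test), where 0.244% of all genes were, 0.103% higher and 0.140% lower. At an unadjusted p under 0.05 there were 3 members, against 7.07% of all genes, and DESeq2 and limma voom called none. The median was −0.15 for members and 0 for all genes. The smallest p belonged to Rps4l, a copy of the X-linked small subunit gene Rps4x, at 2.86, 4.74 and 2.94 CPM in young and 1.10, 0.106 and 1.10 CPM in old mice (−2.19, SE 0.81, adjusted p = 0.496), and to Rpl27 (0.61, SE 0.25, adjusted p = 0.601).

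Between old and young TG DN3a cells 6 members fell and 1 rose, where 7.82% of all genes were called, 4.63% lower and 3.19% higher. The members' median was −0.45, with 74 of 88 below 0, and that of all genes −0.04. In 36 of 88 members every old library lay below every young library, against 15.1% of all genes. Rps4l was at 2.01, 2.89 and 2.14 CPM in young TG mice and had 5, 0 and 0 reads in old TG mice (log2 fold change −3.75, SE 0.99, adjusted p = 0.0247), and all old libraries lay below all young ones. Rps16 fell from 42.1, 26.8 and 30.6 CPM to 16.5, 19.2 and 14.2 CPM (−0.99, SE 0.25, adjusted p = 0.0209), and Rpl9 fell from 56.6, 30.5 and 24.4 CPM to 18.9, 18.2 and 19.2 CPM (−0.98, SE 0.26, adjusted p = 0.0281). In both genes all old libraries lay below all young ones.
Rps10, at the head of the small subunit, fell by 0.90 (SE 0.25, adjusted p = 0.0347), Rpl38 by 1.42 (SE 0.42, adjusted p = 0.0429) and Rps29 by 1.16 (SE 0.35, adjusted p = 0.0470). Rpl3l rose by 2.30 (SE 0.65, adjusted p = 0.0356), from 5.42, 2.77 and 2.34 CPM. No member was called without TG young DN3a replicate 1, without TG old DN3a replicate 3, without the 4 libraries rich in the unnamed feature or with the letter in the library names as a covariate. There were 3 calls without TG old replicate 1, 1 without TG old replicate 2 and 16 without TG DN2 replicate 1. No member passed the test of a difference between genotypes in the change with age (3.05% of all genes were called, 1.02% with a larger and 2.03% with a smaller value). At an unadjusted p under 0.05 there were 18 of 88 members, against 17.6% of all genes, and DESeq2 and limma voom called 1 each. The smallest p was that of Rpl9 (−1.33, SE 0.37, adjusted p = 0.0595), followed by Rpl38 (−1.79, SE 0.59, adjusted p = 0.117).

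Paralogue pairs were compared within each library's scale. Rpl22, whose loss blocks αβ thymocytes, was at 388 to 524 CPM in WT DN2, 275 to 454 CPM in TG DN2, 297 to 361 CPM in WT and 322 to 424 CPM in TG young DN3a, and 210 to 381 CPM in WT and 266 to 310 CPM in TG old DN3a. Its paralogue Rpl22l1, which Rpl22 is known to repress, was at 57.0 to 80.3, 41.5 to 57.3, 39.1 to 51.7, 45.2 to 93.5, 31.8 to 83.4 and 34.3 to 36.0 CPM in the same order. Neither was called in any of the 9 comparisons, and the genotype difference of Rpl22 was −0.44 in young DN2 (95% interval −0.92 to 0.04) and −0.02 in old DN3a (−0.46 to 0.41). Per length, Rpl22 was at 166 RPKM and Rpl22l1 at 107 RPKM.
Rps27 was at 5.18 to 28.8 CPM and Rps27l, a p53-responsive paralogue with no shared stretch, at 31.3 to 76.3 CPM over the 17 libraries, and neither was called. Rpl7 was at 269 to 540 CPM and was not called, unlike Rpl7l1 in old DN3a. Rps4x was at 168 to 380 CPM and was not called, unlike Rps4l. Rpl36al, an autosomal copy of Rpl36a counted at 140 RPKM against 17.4 RPKM for Rpl36a, was at 98.5 and 85.2 CPM in WT DN2 and 89.3, 50.2 and 47.3 CPM in TG DN2 and was not called (−0.56, adjusted p = 0.104).

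Of the members mutated in human T cell leukaemia or linked to p53, Rpl5 was at 77.8 and 46.4 CPM in WT DN2 and 42.8, 28.6 and 26.2 CPM in TG DN2 (−0.93, SE 0.29, adjusted p = 0.0262). Rpl11 was at 25.3 and 14.2 CPM in WT DN2 and 11.6, 8.53 and 7.04 CPM in TG DN2 (−1.12, SE 0.38, adjusted p = 0.0373). The genotypes did not overlap in either gene, and both calls were lost without WT DN2 replicate 1, TG DN2 replicate 2 or TG DN2 replicate 3. Rpl10 was not called there (−0.60, adjusted p = 0.107). Neither Rpl5 nor Rpl11 was called between genotypes in DN3a cells, young or old. Among 14 tested genes of the p53 response, 3 were higher in TG DN2 (Sesn2, Sesn1 and Bbc3) with a median of 0.37, where 13.3% of all genes were higher. In TG young DN3a 1 was lower, the p53 target Cdkn1a (−2.55, SE 0.50, adjusted p = 0.00378), where 5.16% of all genes were lower. In TG old DN3a 4 were higher (Aen, Phlda3, Zmat3 and Bax) and 2 lower, Sesn1 and Cdkn1a (−3.90, SE 0.54, adjusted p = 7.75e-05), with a median of 0.28. There 14.9% of all genes were higher and 15.7% lower.

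Genes that build or serve ribosomes were set beside the members from lists, each read against the share of all genes given above. In TG DN2 12.0% of all genes were lower and 13.3% higher. In TG DN2, 18 of 53 ribosome biogenesis genes were lower and none higher, with a median of −0.41, among them Nop58 of the box C/D particles (−1.07, SE 0.21, adjusted p = 0.00102) and Gnl3, a nucleolar GTPase (−1.25, SE 0.27, adjusted p = 0.00219). Of 77 mitochondrial ribosomal protein genes 17 were lower (median −0.47), of 29 initiation factors 5 were lower (median −0.36), including the cap-binding protein Eif4e (−1.07, SE 0.19, adjusted p = 0.000446), and of 20 aminoacyl-tRNA synthetases 8 were lower (median −0.38). Other lists moved less. Of 15 genes listed for RNA polymerase I 2 were lower (median −0.17). Of 20 other transcripts listed as having pyrimidine tracts 1 was higher and 1 lower (median −0.07). Myc, a driver of ribosome production, was at 287 and 275 CPM in WT DN2 and 157, 107 and 102 CPM in TG DN2 (−1.20, SE 0.23, adjusted p = 0.00110). The list of growth regulators that holds Myc went both ways. Of its 32 tested genes 7 were higher and 4 lower in TG DN2, with a median of 0.32.

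In old DN3a cells members of most of the same lists were higher in TG, and core ribosomal protein genes were not. Of 53 biogenesis genes 13 were higher and none lower (median 0.31), with Bysl of small subunit assembly at 1.17 (SE 0.21, adjusted p = 0.000267). Of 20 aminoacyl-tRNA synthetases 14 were higher and none lower (median 0.59), of 29 initiation factors 10 were higher and none lower (median 0.35), and of 77 mitochondrial ribosomal genes 9 were higher and 1 lower (median 0.24). Of 20 other transcripts listed as having pyrimidine tracts 7 were higher and none lower (median 0.17), among them the poly(A)-binding protein gene Pabpc1 (1.24, SE 0.23, adjusted p = 0.000498) and Vim, which codes for an intermediate filament. Of the 15 genes listed for RNA polymerase I 1 was higher and 1 lower (median 0.16). Over all genes 14.9% were higher and 15.7% lower. Of the 77 core ribosomal protein genes 0 were higher and 2 lower, with a median of −0.11. Of 22 G2 and M phase genes 20 were higher and none lower (median 1.88). Myc was not called (−0.17, SE 0.21, adjusted p = 0.567).

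In young DN3a cells 6 of 53 biogenesis genes were higher in TG (median 0.31), led by Rrp12 (1.05, SE 0.20, adjusted p = 0.00191), and 4.70% of all genes were. Between the TG stages 32 of 53 biogenesis genes rose from DN2 to DN3a (median 0.58), with Nop58 at 1.10 (SE 0.19, adjusted p = 0.000259), beside the 5 of 77 core members. None of the 20 other pyrimidine tract transcripts was called in that step. In young DN2, the 13 core members with a pyrimidine tract at the annotated start had a median of −0.39 and 5 lower calls, and the 44 without one had a median of −0.40 and 9 lower calls. The 44 include genes with a tract within 3 bases of the annotated start, among them Rpl31, Rpl12 and Rpl27a, which were called lower. Since annotated starts are approximate, this split cannot tell genes with and without a tract apart with certainty.

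**Figure D5:**
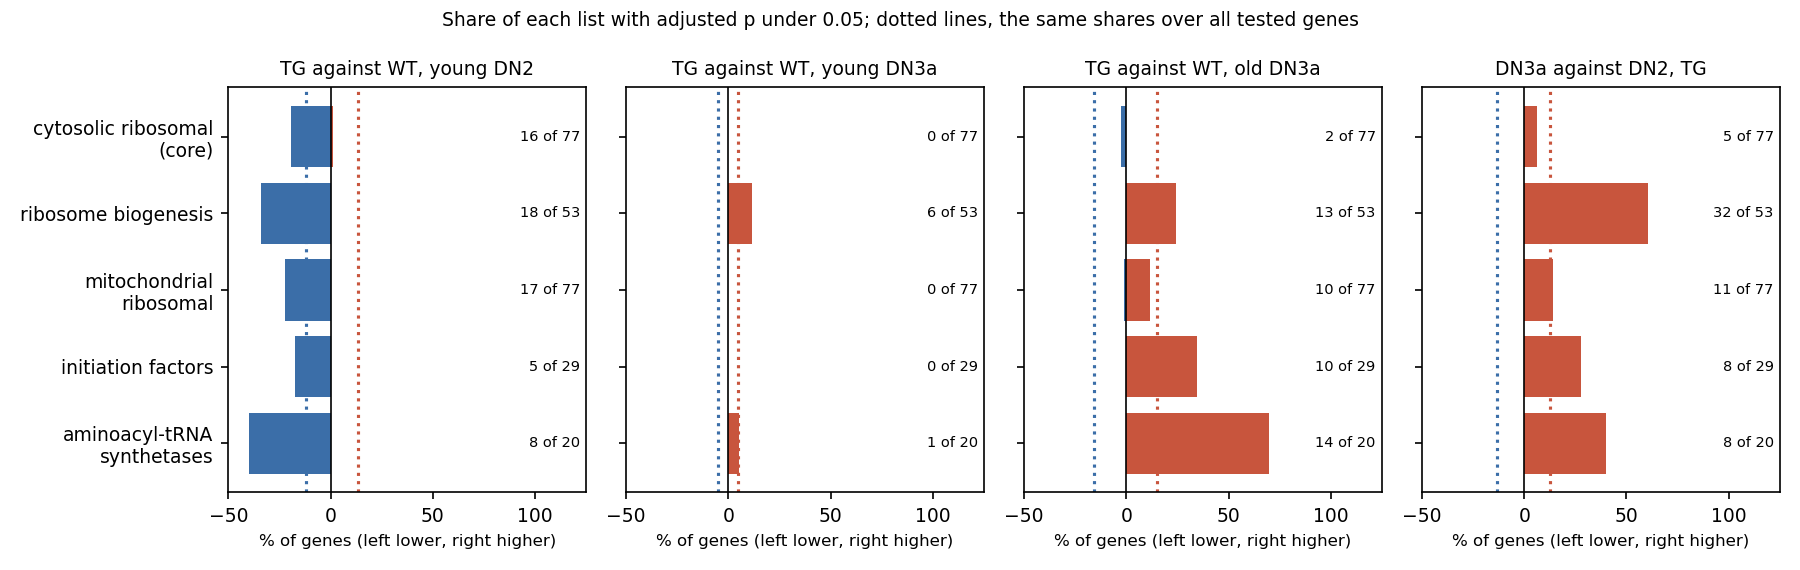
Percent of the genes of each list with adjusted p under 0.05 (lower to the left in blue, higher to the right in red) in 4 comparisons, with the percents over all 13534 genes as dotted lines. In old DN3a cells 2 of 77 core ribosomal protein genes were called, against 13 of 53 biogenesis genes and 14 of 20 aminoacyl-tRNA synthetases.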

How the data were processed

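RNA was extracted from sorted cells with a column kit for small samples, made into Illumina TruSeq libraries and read as single 100-base reads, per the labels' protocols. The authors deposited raw counts per gene by Entrez ID. The submitters' processing notes name featureCounts and the mm10 build. For the aligner, annotation, strand setting and tool versions the sources used here give nothing. The 17 single-library files held the same counts as the combined table. Symbols came from RefSeq for all 90 members, and 1886 of the 27179 IDs stayed unnamed. The members, gene lists and comparisons were chosen with earlier results of these data known.

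Counts were filtered with edgeR's filterByExpr (minimum count 10, minimum total 15), which kept 13534 genes, scaled by TMM and fitted over all 6 groups with edgeR 4.0.16 (quasi-likelihood test, robust moderation, R 4.3.3). P-values were adjusted by Benjamini-Hochberg over all 13534 genes, with 0.05 as the threshold. The common biological coefficient of variation was 0.244. CPM and RPKM values use library totals multiplied by the TMM factors, and log CPM in the heat map has a prior count of 2. The comparisons were TG against WT in each stage and age, DN3a against DN2 and old against young in each genotype, and the differences of these effects between genotypes. Members were named by rule: up to 6 called in each direction with the smallest adjusted p per comparison (up to 4 for differences of effects, and the 2 smallest where none was called), the paralogue pairs, stalk genes and Rpsa, those linked to T cell leukaemia or p53, and the extremes of level and of spread between groups. Up to 4 called genes were named per list, and Myc always. Some genes are not reported by name here. The fit was tested on simulated data with independent libraries and a single fixed spread. That simulation held no shared mice and no shifts of whole libraries, so it cannot speak to calls that rest on single libraries.

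Per the labels, 5 young DN3a libraries share a mouse with a DN2 library. The deviations of these pairs from their group means had correlations of 0.09, 0.19, 0.09, 0.01 and −0.07 over all genes tested, and 0.39, 0.45, 0.06, 0.44 and −0.31 over the members. Alternatives were limma voom (limma 3.58.1), DESeq2 1.42.0, other scalings, no filter, only the groups compared, covariates, replicate blocks and leaving out each library. A fit without robust moderation and one without the 4 libraries rich in the unnamed feature were chosen after seeing the data.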

Additional observations from a re-analysis of the deposited data

Results flagged for a closer look

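The DN3a minus DN2 difference was larger in TG than in WT young mice, by a test of the difference itself (edgeR's quasi-likelihood interaction term, adjusted p under 0.05), in 16 of the 88 members (18.18%). Over all genes 20.9% were called, 10.9% with a larger value in TG. On the log2 scale the difference was 2.68 for Rpl36a, 2.46 for Rps29, 2.38 for Rpl38 and 2.25 for Rpl28. It was 1.73 for Rpl31, 1.73 for Rpl9, 1.72 for Rpl37a and 1.70 for Rpl11. It was 1.62 for Rps6, 1.55 for Rpl24, 1.45 for Rpl12 and 1.40 for Rps16. It was 1.32 for Rpl5, 1.26 for Rpl10, 1.14 for Rpl27 and 1.07 for Rpl14. Of these 16, 14 are among the 26 least-counted core members, and 0 of the 88 were called without the 4 libraries rich in the unnamed feature.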

How the results depend on the processing

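Counts of called members moved with the processing more than 1.5 times in several comparisons, no call changed direction, and the cause was not tested. For TG against WT young DN2 (16 called), voom gave 40, only the groups compared 7, the unnamed feature as covariate 2 and leaving out the 4 libraries rich in it 1. For young DN3a (0), DESeq2 gave 1 and voom 2. For old DN3a (4), DESeq2 gave 7, no scaling 2, no filter 2 and leaving out the 4 libraries 2. For the WT stage step (3), DESeq2 gave 6, voom 8, the library letter 5 and leaving out the 4 libraries 7. For the TG stage step (5), voom gave 29, only the groups compared 1 and leaving out the 4 libraries 0. For age in TG (7), DESeq2 gave 13, no scaling 4, only the groups compared 15, sex 4, the library letter 0, the unnamed feature 11 and leaving out the 4 libraries 0. For the stage difference between genotypes (16), voom gave 36 and leaving out the 4 libraries 0. For the age difference (0), DESeq2, voom and no filter gave 1 each.

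With the replicate number as a block, old DN3a gave 7, the TG stage step 9 and the age difference 1, and with the mouse as a block the TG stage step gave 2. The blocks moved no other count past 1.5 times, with 16 by number and 12 by mouse for young DN2. Numbers do not follow mice in TG.

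Leaving out 1 library at a time gave 1 to 40 for young DN2, 0 to 1 for young DN3a, 1 to 7 for old DN3a, 0 to 11 for the WT and 0 to 20 for the TG stage step, 0 to 0 for age in WT, 0 to 16 for age in TG, 3 to 37 for the stage difference and 0 to 2 for the age difference. Without the unnamed feature, Lars2 and mitochondrial genes in the total, the read share was 2.51% in WT DN2 and 2.27% in WT young DN3a, and with core members alone it was 1.94% in WT young DN3a. A pyrimidine start was found in 40.4% of core members when it could move by 3 bases. Depth limits what can be said of Rpl39, with 58 reads over the 17 libraries.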

Other observations

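Fau and Rack1 are ribosome components that lie outside the symbol rule. Fau, whose product is cut to a ubiquitin-like protein and Rps30, was at 17, 14.1 and 14.6 CPM in TG young DN3a and 7.88, 8.68 and 7.71 CPM in TG old DN3a. All old libraries lay below all young ones, and the log2 fold change was −0.91 (SE 0.26, adjusted p = 0.0375, edgeR's quasi-likelihood test). Rack1, a scaffold of the small subunit head, was called in no comparison.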
